A study of Rattus norvegicus with 4 samples.

Results

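Kinesins and cytoplasmic dynein are motor proteins that burn ATP to walk along microtubules. Most kinesins move towards the plus end, which in an axon points to the tip, and carry vesicles, mitochondria and RNA granules outward, whereas cytoplasmic dynein moves cargo back to the cell body. A separate group of kinesins works on the mitotic spindle, where it sorts chromosomes, trims microtubule ends and builds the midzone at which a dividing cell is cut apart. A neuron that has left the cell cycle depends on the transport motors, whereas spindle kinesins are characteristic of dividing cells.

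The motor genes described here are the rows of the count table whose symbol begins with Kif and a digit, Klc and a digit, or Dync, with a summed count of 20 or more over the 4 libraries. The name rule matched 47 of 21648 gene identifiers and the count minimum kept 44. The members with the lowest sums were Kif28p with 36 counts, Kif26a with 44 and Kif6 with 46, and those left out were Klc3 with 1 count and Kif2b and Kif12 with 0. By role, 9 members were mitotic kinesins and 22 were axonal transport motors, comprising 14 heavy chains of transport kinesins, 3 kinesin light chains and 5 subunits of cytoplasmic dynein. A further 8 were motors of the cilium and 4 were other kinesins. The last, Kif1bp, met the name rule but codes for a kinesin binding protein that is not a motor. Of the 44 members 43 passed the filter on low counts and were tested, Kif28p being the exception. Kif18b, Kif14 and Kif2c, with 0, 2 and 11 summed counts in topotecan, met both the count minimum and the filter only through DMSO. Kif7 likewise met them only through DMSO, and Kif26a only through topotecan. Membership of these genes thus depends on the treatment in which they were higher. Kif11, Kif15 and Kif1b were not analysed here.

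RNA came from cortical neurons bought from a commercial supplier, taken from rats at embryonic day 18, plated in a neural induction medium and moved after 24 h to a neuronal medium. Cells were given topotecan, an inhibitor of topoisomerase I that the submitters used to lower the expression of long genes, or the solvent DMSO. There were 2 libraries per treatment, with 31181382 and 25459488 gene counts in topotecan and 27347410 and 22957786 in DMSO. The labels state neither the dose and duration of topotecan nor whether the libraries of a treatment came from separate cultures, so p-values measure the spread between these libraries, which may be technical. Markers of neurons were abundant, as 12 of 12 were tested and their summed level was 20485 and 21856 CPM in topotecan and 19645 and 17764 CPM in DMSO. Tubb3, a neuronal tubulin, gave the largest part of that sum. The markers went both ways, with Rbfox3 (58.3% of DMSO) and Map2 (72.4%) lower and Tubb3, Dcx, Nefm and Elavl3 higher. Of all 12162 genes tested 23.5% were lower and 16.2% higher. With scaling to neuronal genes 2 of the 12 markers were lower and 0 higher, against 3303 and 899 of all genes. Tubb3, Nefm and Elavl3 are themselves among the genes used for that scaling. It draws them towards equality and is no separate check on their rises. CPM are counts scaled to library size after TMM normalisation, which assumes that the bulk of genes is equal between libraries.

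Motor genes were compared between topotecan and DMSO by role, in classes drawn up with earlier results of these data known. Kif2a, a relative of the mitotic Kif2c, was placed among the other kinesins and was at 97.8% of DMSO. All 9 mitotic kinesins fell, to between 0% and 57.9% of their mean CPM in DMSO, and together they dropped to 25.9% of it. The lowest of them, Kif18b, Kif2c and Kif14, were members only through their DMSO counts. The summed CPM of the axonal transport motors stood at 104% of DMSO, and at 95.7% when libraries were scaled to neuronal genes, with 3 of 22 lower and 2 of 22 higher. The transport members that fell were Kif17, Kif13b and the kinesin heavy chain gene Kif5c, and those that rose were the light chain gene Klc1 and the dynein subunit gene Dync1li1. Over all 43 tested members 13 were lower in topotecan and 4 higher (edgeR's quasi-likelihood test with Benjamini-Hochberg adjustment over all genes, threshold 0.05). Of the 12162 genes tested 39.7% passed, with 23.5% lower and 16.2% higher. The number of members called higher was 1 without topotecan replicate 1 and 6 without DMSO replicate 2. For the transport motors alone it was 1 without either topotecan library and 4 without DMSO replicate 2. The median log2 fold change was -3.25 for mitotic kinesins, -0.02 for axonal transport motors and -0.01 for all genes.

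**Figure D1:**
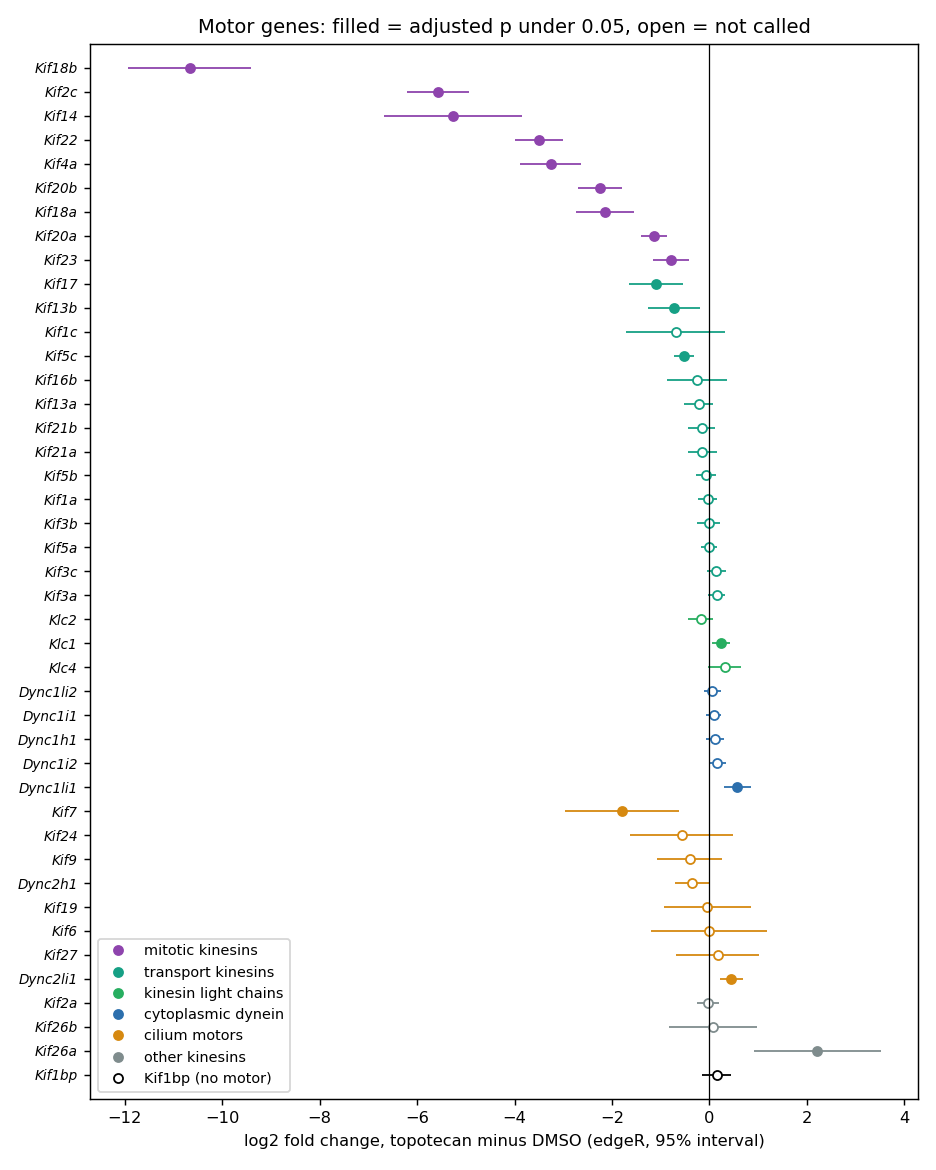
Log2 fold change (topotecan minus DMSO, horizontal axis) of the 43 tested motor genes, grouped by role, with 95% intervals from the edgeR fit. Filled points passed an adjusted p under 0.05 and open points did not. The 9 mitotic kinesins lie at -0.79 or below, whereas the axonal transport motors lie between -1.09 and 0.57. The point of Kif18b is a fitted value for a gene with no counts in topotecan.

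Among the kinesins that act on microtubule ends, Kif18b had no counts in either topotecan library, against 230 and 161 counts in the DMSO libraries. The gene codes for a motor that tracks and shortens the plus ends of astral microtubules. Set against a floor of 3 counts for the summed topotecan libraries, it was at least 143-fold lower in topotecan. Kif2c, whose product depolymerises microtubules at centromeres to correct faulty attachments, had 7 and 4 counts in topotecan, against 284 and 207 in DMSO. Its mean of 0.193 ± 0.0493 CPM was 2.02% of the 9.58 ± 1.01 CPM in DMSO (SD, n = 2 each), a log2 fold change of -5.58 (SE 0.30, edgeR adjusted p = 3.2e-09). Kif18a, which damps the movements of chromosomes at the metaphase plate, kept more, with 30 and 22 counts in topotecan and 97 and 112 in DMSO. Its log2 fold change was -2.15 (SE 0.28, edgeR adjusted p = 3.2e-05).

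Both chromosome-bound kinesins fell. Kif22, which pushes chromosome arms towards the spindle equator, had 29 and 20 counts in topotecan and 301 and 209 in DMSO. Its log2 fold change was -3.50 (SE 0.23). Kif4a, which helps compact chromosomes and, with the crosslinker Prc1, sets the length of the midzone, had 15 and 28 counts in topotecan and 192 and 186 in DMSO, a log2 fold change of -3.25 (SE 0.29). Their 95% intervals ran from -4.00 to -3.00 and from -3.88 to -2.63 and overlapped. Prc1 itself was at 0.946 and 1.11 CPM in topotecan, against 32.3 and 31.6 CPM in DMSO, or 3.22% of DMSO.

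The kinesins of the midzone and of cytokinesis differed widely in what remained. Kif14, which works in the final cut between daughter cells, had 2 and 0 counts in topotecan and 41 and 38 in DMSO. The ratio of DMSO to topotecan was 43.3, with an exact 95% counting interval from 11.6 to 364. Kif20b, also a cytokinesis motor and required for growth of the cerebral cortex in mice, had 62 and 38 counts in topotecan and 231 and 200 in DMSO, a log2 fold change of -2.25 (SE 0.21).

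The smallest falls of the group were those of Kif20a and Kif23. Kif20a, which brings the Aurora B kinase complex to the midzone, had 397 and 303 counts in topotecan and 775 and 627 in DMSO. Its mean was 12.5 ± 0.662 CPM in topotecan and 27.5 ± 0.881 CPM in DMSO (SD, n = 2 each), so 45.4% remained (log2 fold change -1.14, SE 0.13, edgeR adjusted p = 7.7e-06). Kif23, the motor of the centralspindlin complex and a protein also described in dendrites of rodent neurons, had 143 and 127 counts in topotecan and 234 and 193 in DMSO. It kept 57.9% of its DMSO level (4.85 ± 0.262 against 8.37 ± 0.154 CPM), with a log2 fold change of -0.79 (SE 0.17, edgeR adjusted p = 0.0021). The 95% intervals of these 2 genes, from -1.41 to -0.86 and from -1.15 to -0.43, overlapped each other and none of the other 7 mitotic kinesins' intervals. The difference between genes was not tested. In a RefSeq annotation of GRCr8 Kif20a overlaps Cdc23, on the opposite strand, by 1890 bases. Cdc23 had 119 and 131 CPM in topotecan and 104 and 107 CPM in DMSO. The sources used here do not say whether counting used the strand, so reads of this overlap cannot be told apart.

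**Figure D2:**
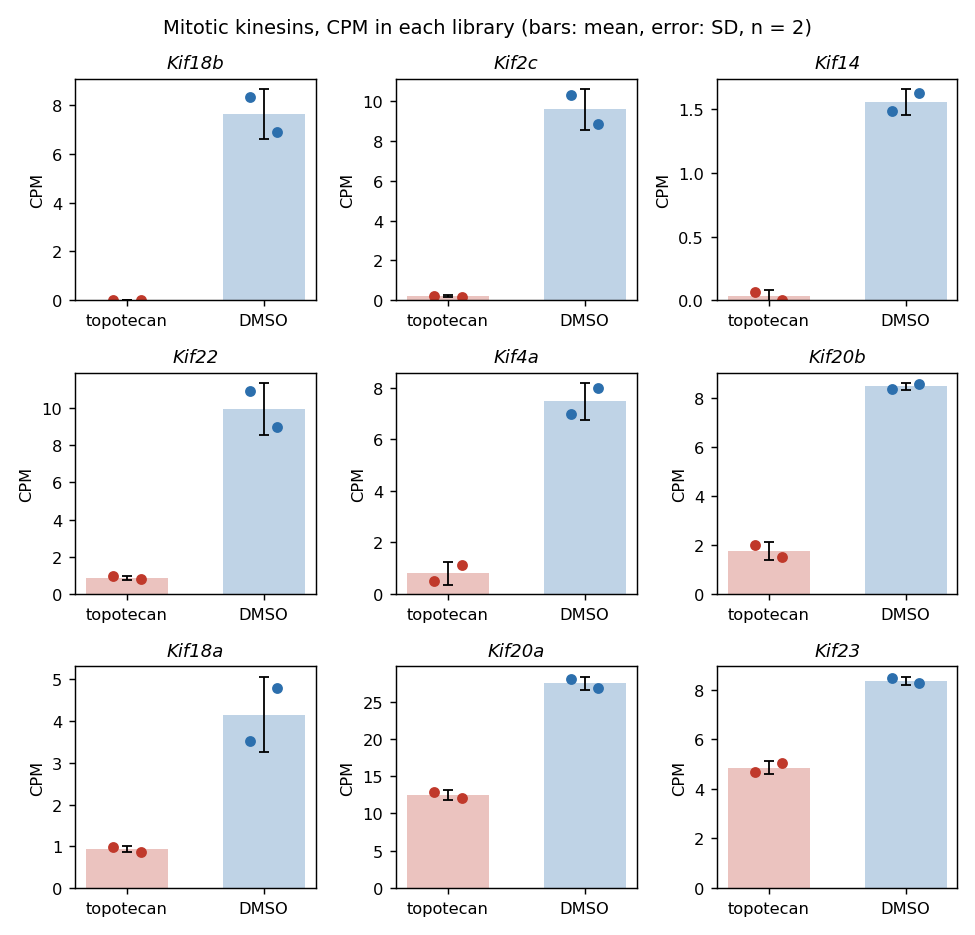
CPM of each mitotic kinesin in the 2 topotecan and the 2 DMSO libraries (points), with the mean (bar) and SD (error bar, n = 2). In all 9 panels both topotecan libraries lie below both DMSO libraries, with Kif18b at 0 and Kif23 at 57.9% of DMSO.

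For each of the 9 mitotic kinesins both topotecan libraries lay below both DMSO libraries, whereas 36.9% of all genes tested showed that order. The 9 calls held without any 1 of the libraries. Summed over the 9 genes, the level was 22.3 and 21.5 CPM in topotecan and 86.4 and 82.8 CPM in DMSO. Kif20a and Kif23 made up the larger part of what remained in topotecan.

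Other mitotic genes, from a list of partners and regulators, moved the same way. Of 25 listed genes 22 had a row and 20 were tested, of which 18 fell and 0 rose. Some of these, such as Nusap1 and Aurkb, met the filter on low counts only through DMSO. Nusap1 had 3 and 3 counts in topotecan and Aurkb 9 and 3. The count of falls thus depends in part on the treatment in which genes were higher. Over all genes tested 23.5% fell and 16.2% rose. The median of the 20 log2 fold changes was -3.45. Nusap1, which bundles spindle microtubules, was at 0.0978 and 0.119 CPM in topotecan, which is 0.597% of its mean in DMSO. Cdk1, the mitotic kinase, was at 0.522 and 0.476 CPM in topotecan and 21.4 and 18.5 CPM in DMSO. Aurkb, the kinase whose complex Kif20a carries, kept 1.66% of its DMSO level. Its partners in that complex kept more, with Birc5 at 32.1% and Cdca8 at 43.9%, and Incenp, at 68.3%, did not pass (edgeR adjusted p = 0.11). Aurka, the spindle pole kinase, kept 54.7%. Among kinesin genes outside the name rule, the kinetochore motor gene Cenpe was at 1.83 and 1.31 CPM in topotecan and 5.76 and 5.69 CPM in DMSO. Kifc1, a motor that clusters spindle poles, kept 5.16% and also met the filter only through DMSO. Kifc3, the remaining tested member of that list, was at -0.23 on the log2 scale without passing (edgeR adjusted p = 0.32).

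Markers of astrocytes, of the oligodendrocyte lineage and of most of the dividing cell list were lower in topotecan, as the mitotic kinesins were. Of 8 tested markers of dividing cells and progenitors 6 fell, where 23.5% of all genes tested fell. Fabp7, a fatty acid carrier of radial glia, was at 0.196 and 0.674 CPM in topotecan and 290 and 277 CPM in DMSO, whereas Hes1, a Notch target, did not pass (143% of DMSO), nor did Pcna, the replication clamp, at 126 and 121 CPM in topotecan and 139 and 137 CPM in DMSO. The summed level of the list was 139 and 133 CPM in topotecan and 502 and 480 CPM in DMSO, and Hes5 was at 0 in both topotecan libraries. All 10 astrocyte markers fell, with sums of 114 and 126 CPM in topotecan and 3870 and 3933 CPM in DMSO. All 10 oligodendrocyte lineage markers fell as well, with sums of 135 and 121 CPM in topotecan and 4009 and 4308 CPM in DMSO, and Sox10 was at 0 in topotecan. Mki67, a marker of proliferation that is also on the list of mitotic partners, was at 0.326 and 0.198 CPM in topotecan and 4.46 and 3.72 CPM in DMSO. None of the microglia markers passed the filter, and their sums overlapped between treatments, at 0.163 and 0.515 CPM in topotecan and 0.399 and 0.471 CPM in DMSO. Of the endothelial list only Kdr was tested, and it fell. In the fibroblast and mural list Pdgfrb fell and Lum rose. Some markers in these lists met the filter on low counts only through DMSO, among them Sox10, Gfap, Mki67, Kdr and Pdgfrb. Gfap, for example, had 2 and 1 counts in topotecan. The counts of falls thus depend in part on the treatment in which markers were higher. In RNA from whole cultures fewer cells of a type and less RNA per cell cannot be told apart, and the part of these markers in the fall of the mitotic kinesins was not tested.

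The sequences just upstream of the annotated starts are shown for 6 mitotic kinesins, each with a match in the stretch printed. Those of Kif18a, and of Kif2c, which held no match, are not printed. Promoters were searched because the mitotic kinesins moved together and because promoters of mitotic genes are known to share 2 short elements. One is the CHR element, searched as TTTGAA and also in the variant form TTCGAA, which is bound by the MuvB core of the DREAM complex that silences such genes in resting cells. The other is the CCAAT box bound by NF-Y. Sites of the E2F cell cycle factors were searched in 3 forms, of which the first was TTCCCGC. The second form searched was TTCGCGC. The third form searched was TTGGCGC. All letters were searched on both strands in the 250 bases before the start, in sequences from RefSeq with build GRCr8. Capitals mark the matches in the 160 bases printed here, which run 5' to 3' on the strand of the gene and end at the base before the start.
Kif20a at chr18:26504262-26504421 (+), with 2 CCAAT boxes: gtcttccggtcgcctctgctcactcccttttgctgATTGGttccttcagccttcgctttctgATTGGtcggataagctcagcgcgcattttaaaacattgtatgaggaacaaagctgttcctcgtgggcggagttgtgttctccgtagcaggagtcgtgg
Kif23 at chr8:71320585-71320744 (-), with a CCAAT box and a CHR: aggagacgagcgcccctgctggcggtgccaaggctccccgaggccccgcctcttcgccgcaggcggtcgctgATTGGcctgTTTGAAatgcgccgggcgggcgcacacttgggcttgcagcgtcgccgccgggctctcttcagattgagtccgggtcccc
Kif20b at chr1:241840856-241841015 (+), with a CCAAT box and a CHR: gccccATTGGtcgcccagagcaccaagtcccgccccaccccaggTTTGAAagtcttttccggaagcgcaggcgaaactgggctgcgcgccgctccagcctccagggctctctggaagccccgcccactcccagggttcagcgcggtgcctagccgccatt
Kif22 at chr1:191080879-191081038 (-), with a CCAAT box and a CHR: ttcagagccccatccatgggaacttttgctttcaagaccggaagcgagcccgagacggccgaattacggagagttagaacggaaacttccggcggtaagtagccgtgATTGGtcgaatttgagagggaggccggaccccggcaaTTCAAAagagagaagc
Kif4a at chrX:69761723-69761882 (+), with a CCAAT box: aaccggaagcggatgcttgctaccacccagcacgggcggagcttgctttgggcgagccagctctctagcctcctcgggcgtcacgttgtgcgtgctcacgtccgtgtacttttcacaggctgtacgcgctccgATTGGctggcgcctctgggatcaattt
Kif18b at chr10:88389692-88389851 (-), with an E2F match: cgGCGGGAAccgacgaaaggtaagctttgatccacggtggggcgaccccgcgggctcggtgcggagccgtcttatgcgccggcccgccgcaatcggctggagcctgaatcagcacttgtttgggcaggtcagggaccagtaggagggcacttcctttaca

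The table held 9 promoters of 8 mitotic kinesin genes and 21 promoters of 19 axonal transport motor genes. Among the latter, the promoters of Klc1, from starts 8, 22 and 31 bases into its span, largely overlap and are not separate observations. A CCAAT box stood in 5 of the 9 mitotic promoters, in 4 of the 21 transport promoters and in 34.0% of all promoters of the same length. A CHR match stood in 3 of 9 mitotic promoters, in 0 of 21 transport promoters and in 17.4% of all. An E2F match stood in 2 of 9, in 2 of 21 and in 6.04% of all. Base composition differed, with a median GC content of 61.2% for mitotic, 67.6% for transport and 51.2% for all promoters. The CHR and CCAAT letters hold more A and T than G and C. The part of base composition in these shares was not tested. No match of 1 motif overlapped a match of another in the mitotic and transport promoters. In Kif23 the CCAAT box began 88 bases and the CHR 79 bases before the start, and in Kif22 they began 53 and 16 bases before it. Kif20a, Kif22 and Kif4a each held 1 more CCAAT box upstream of the stretch shown, at 220, 231 and 175 bases before the start. Kif20b, Kif22 and Kif23 held both a CHR and a CCAAT box in this window, Kif20a and Kif4a a CCAAT box without a CHR, Kif18a and Kif18b an E2F match alone, and Kif2c none of these. The annotated gene span begins upstream of the start used here by 2697 bases for Kif18b, 1327 for Kif23, 118 for Kif20b, 80 for Kif4a and 77 for Kif22. A match is a description of letters and not a site.

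Turning to the transport motors, the heavy chain genes of conventional kinesin, Kif5a, Kif5b and Kif5c, code for close paralogues that carry mitochondria, vesicles and neurofilaments. Kif5a had 508 and 532 CPM in topotecan and 499 and 541 CPM in DMSO. Kif5b had 64.4 and 63.9 CPM in topotecan and 69.5 and 64.8 CPM in DMSO. Kif5c had 62.8 and 66.6 CPM in topotecan and 87.3 and 98.1 CPM in DMSO. Kif5c was the paralogue that fell, to 69.8% of DMSO, with a log2 fold change of -0.52 (SE 0.10, edgeR adjusted p = 7.5e-04). Kif5a and Kif5b did not pass, with 95% intervals of the log2 fold change from -0.16 to 0.16 and from -0.27 to 0.14. Within a library, where no scaling enters, Kif5c had 12.4 and 12.5 counts for every 100 Kif5a counts in topotecan and 17.5 and 18.1 in DMSO. Against 100 Kif5b counts it had 97.6 and 104 counts in topotecan and 126 and 151 in DMSO. The groups did not overlap in either ratio, although an exact permutation test of 2 against 2 libraries cannot go below p = 0.33. Kif5c spans 150 kb in the RefSeq annotation, Kif5a 37.1 kb and Kif5b 37.6 kb. The part of span in the fall of Kif5c was not tested.

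The light chains of the same motor bind its cargo. Klc1, the main light chain of neurons, had 134 and 139 CPM in topotecan and 120 and 111 CPM in DMSO, a log2 fold change of 0.24 (SE 0.09, edgeR adjusted p = 0.042). This call was lost with scaling to neuronal genes (adjusted p = 0.41), with the replicate block (0.059), and without topotecan replicate 1 (0.15), topotecan replicate 2 (0.28) or DMSO replicate 2 (0.087). Its span overlaps Xrcc3, a repair gene on the opposite strand, by 5842 bases, and Xrcc3 was at 0.0978 and 0.317 CPM in topotecan and 0.616 and 0.385 CPM in DMSO. Klc2 had 41.7 and 46.9 CPM in topotecan and 55.1 and 45.1 CPM in DMSO and did not pass (edgeR adjusted p = 0.25). It passed as a fall without DMSO replicate 2 (adjusted p = 0.016). Klc4 had 23.2 and 22.4 CPM in topotecan and 21.7 and 14.9 CPM in DMSO. It did not pass (edgeR adjusted p = 0.13) except without DMSO replicate 1 (adjusted p = 4.4e-04). Per 100 Klc1 counts there were 31.2 and 33.8 Klc2 counts in topotecan, against 45.8 and 40.5 in DMSO.

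Heterotrimeric kinesin, which moves vesicles in axons and builds cilia, has a pair of motor subunits, from Kif3a, Kif3b and Kif3c, and none of these genes passed with all libraries. Kif3a had 434 and 426 CPM in topotecan and 365 and 411 CPM in DMSO (log2 fold change 0.15, SE 0.08), with an edgeR adjusted p of 0.16, and it passed without DMSO replicate 2 (0.013). Kif3b had 52.3 and 48.7 CPM in topotecan and 46.8 and 55.4 CPM in DMSO, and the treatments overlapped. Kif3c, the neuronal alternative to Kif3b, had 70.3 and 69.4 CPM in topotecan and 61.7 and 64.9 CPM in DMSO. Its span overlaps Asxl2 on the same strand by 35316 bases. Kifap3, the accessory subunit that ties this motor to cargo, fell, with 484 and 477 CPM in topotecan and 565 and 635 CPM in DMSO (log2 fold change -0.32, SE 0.08, edgeR adjusted p = 0.0055).

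Kif1a, the carrier of synaptic vesicle precursors, had 590 and 683 CPM in topotecan and 604 and 698 CPM in DMSO, so the gap between replicates exceeded that between treatments. Its 95% interval of the log2 fold change ran from -0.23 to 0.16. Kif17, which is counted in this class although it carries NMDA receptor vesicles in dendrites, fell most among the transport motors. It had 1.44 and 1.55 CPM in topotecan and 2.83 and 3.55 CPM in DMSO, which left 46.7% (log2 fold change -1.09, SE 0.26, edgeR adjusted p = 0.0041). Kif13b, a motor of signalling vesicles in growing axons, had 2.02 and 1.70 CPM in topotecan and 3.37 and 2.78 CPM in DMSO. Its log2 fold change of -0.72 (SE 0.25) passed (edgeR adjusted p = 0.033), but not with DESeq2 (adjusted p = 0.16), nor without topotecan replicate 1 (0.051), topotecan replicate 2 (0.16) or DMSO replicate 1 (0.17). Kif13a, an endosomal motor, had 13.0 and 13.9 CPM in topotecan and 14.5 and 17.0 CPM in DMSO and did not pass (edgeR adjusted p = 0.23).

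The remaining heavy chains, Kif16b of early endosomes, Kif1c of secretory vesicles, and Kif21a and Kif21b, which also slow microtubule growth, did not pass. Their log2 fold changes lay between -0.70 for Kif1c and -0.14 for Kif21a. Of the 14 heavy chains 3 fell and 0 rose, a share of 21.4% lower that is near the 23.5% of all genes tested, and their summed level was 1843 and 1949 CPM in topotecan and 1799 and 2009 CPM in DMSO.

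**Figure D3:**
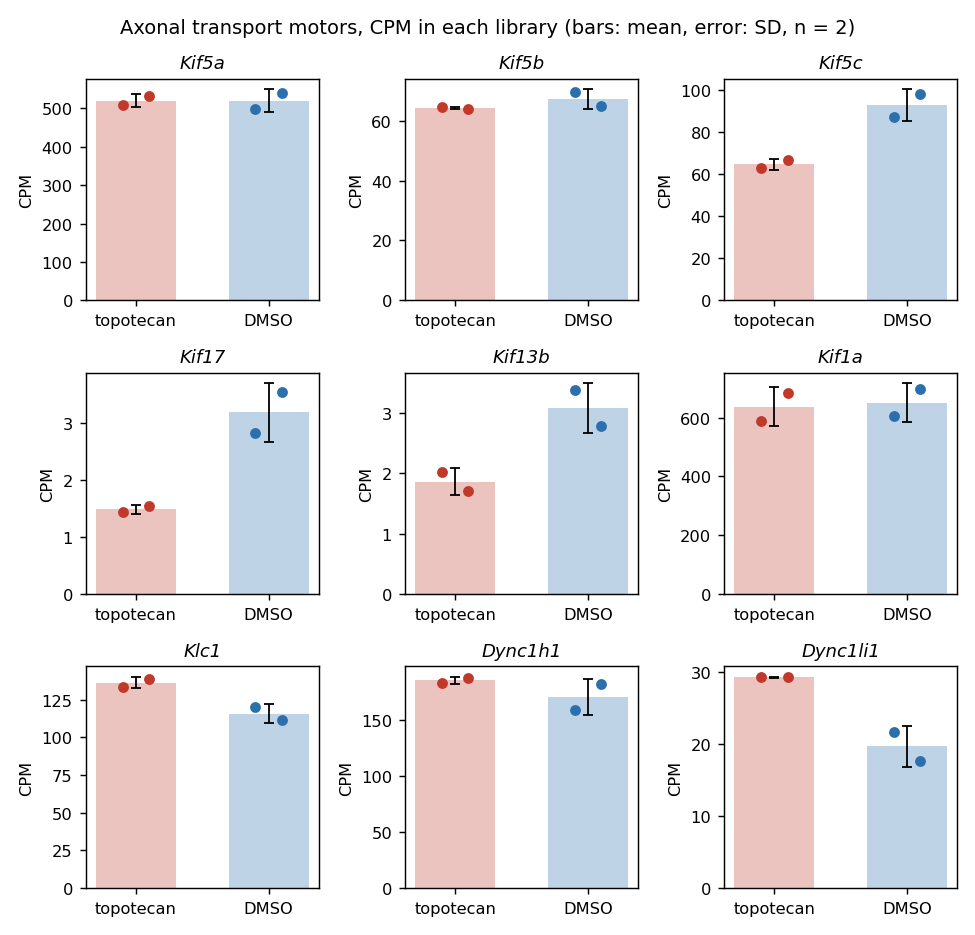
CPM of 9 axonal transport motor genes in the 2 topotecan and the 2 DMSO libraries (points), with mean (bar) and SD (error bar, n = 2). Kif5c, Kif17 and Kif13b lie lower in topotecan, Klc1 and Dync1li1 higher, and Kif5a and Kif1a overlap between treatments.

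Cytoplasmic dynein is built on a heavy chain with intermediate, light intermediate and light chains. The heavy chain gene Dync1h1 had 183 and 188 CPM in topotecan and 159 and 182 CPM in DMSO and did not pass (edgeR adjusted p = 0.29), though it did without DMSO replicate 2 (0.028). The intermediate chains bind dynactin. Dync1i1, the neuronal one, had 1045 and 1103 CPM in topotecan and 1050 and 970 CPM in DMSO. Dync1i2, the widely expressed one, had 532 and 519 CPM in topotecan and 442 and 496 CPM in DMSO, and likewise passed only without DMSO replicate 2 (edgeR adjusted p = 0.0082). Both treatments overlapped for Dync1i1 and not for Dync1i2.

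The light intermediate chains hold the adaptors that select cargo. Dync1li1 rose, with 29.2 and 29.3 CPM in topotecan and 21.7 and 17.6 CPM in DMSO (log2 fold change 0.57, SE 0.13, edgeR adjusted p = 0.0032), and it passed under each alternative tried. Dync1li2 had 245 and 235 CPM in topotecan and 223 and 237 CPM in DMSO, with a 95% interval of the log2 fold change from -0.11 to 0.23. Per 100 Dync1li2 counts there were 11.9 and 12.4 Dync1li1 counts in topotecan and 9.73 and 7.44 in DMSO. The whole set of 5 dynein subunits summed to 2035 and 2075 CPM in topotecan and 1896 and 1903 CPM in DMSO. The log2 fold changes of the other 4 subunits lay between 0.06 and 0.16. With scaling to neuronal genes the fold changes of Dync1h1, Dync1i1 and Dync1li2 were just below 0.

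The light chains of dynein and the dynactin complex, which dynein needs to move processively, were taken from lists. Of 11 dynactin genes tested 4 rose and 0 fell, where 16.2% of all genes rose and 23.5% fell, and the median of the 11 log2 fold changes was 0.19. Dctn3, a subunit of the shoulder, had 251 and 243 CPM in topotecan and 175 and 131 CPM in DMSO (log2 fold change 0.69, SE 0.11). Dctn6 and Actr10, from the pointed end of the filament, rose by 0.39 (SE 0.08) and 0.36 (SE 0.08) on the log2 scale. Dctn5 rose by 0.31. With scaling to neuronal genes Actr10 and Dctn5 lost their calls and the count was 2 of 11. Under that scaling 899 of all 12162 genes tested rose. Without topotecan replicate 1 Dctn5 lost its call. Dctn1, the subunit that grips microtubules, was uneven in DMSO, with 155 and 173 CPM in topotecan and 159 and 103 CPM in DMSO. It passed as a rise without the filter on low counts, without topotecan replicate 1 and without DMSO replicate 1. Without DMSO replicate 1 Dctn2 and Actr1b also passed as rises and Dctn4 as a fall. Dctn2 passed as a rise without the filter on low counts as well.

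Of 5 light chain genes tested Dynlrb1 and Dynlt1 rose, by 0.43 (SE 0.07) and 0.35 (SE 0.08) on the log2 scale. Over all genes tested 16.2% rose and 23.5% fell. With scaling to neuronal genes Dynlt1 lost its call. Dynlt3, at -0.22, passed narrowly (edgeR adjusted p = 0.0496) and lost the call with DESeq2, with RLE factors, without the filter, with the replicate block and without either topotecan library or DMSO replicate 2. Dynll1 and Dynll2 did not pass. Of 10 dynein regulators and adaptors Hook2, a dynein adaptor of the Hook family, rose and Spdl1, the kinetochore adaptor of dynein, fell. Both shares are below those of all genes. Spdl1 had 1.34 and 1.74 CPM in topotecan and 4.78 and 3.17 CPM in DMSO (log2 fold change -1.39, SE 0.27, edgeR adjusted p = 0.0012). Hook2 had 5.58 and 5.47 CPM in topotecan and 3.84 and 1.93 CPM in DMSO and did not pass without DMSO replicate 2 (adjusted p = 0.073). Pafah1b1, the Lis1 gene that activates dynein and whose loss in humans causes smooth brain, had 61.5 and 63.0 CPM in topotecan and 68.2 and 76.6 CPM in DMSO and did not pass (edgeR adjusted p = 0.094), except with scaling to neuronal genes or without DMSO replicate 1. Under those same settings Hook3 passed as a fall.

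Of 17 kinesin adaptor and cargo genes 3 fell and 2 rose, shares that are no higher than the 23.5% and 16.2% of all genes. Ppfia2, a liprin that organises presynaptic sites, had 77.2 and 71.1 CPM in topotecan and 118 and 154 CPM in DMSO (log2 fold change -0.87, SE 0.12, edgeR adjusted p = 4.8e-05). Sybu, the syntabulin gene that links conventional kinesin to syntaxin vesicles, had 753 and 756 CPM in topotecan and 582 and 585 CPM in DMSO (log2 fold change 0.37, SE 0.07). Trak2, the adaptor between kinesin and mitochondria, fell by 0.40 (SE 0.10), and Arl8a, the lysosomal GTPase, rose by 0.26 (SE 0.10). The Arl8a call was lost with scaling to neuronal genes, with the replicate block and without either topotecan library. With scaling to neuronal genes the list held 6 falls and 1 rise, where 3303 of all 12162 genes tested fell and 899 rose. With RLE factors it held 3 falls and 4 rises, where 2789 of all genes fell and 2059 rose. Fez1, a kinesin adaptor that missed the threshold narrowly (edgeR adjusted p = 0.051), passed as a rise with limma-voom, with RLE factors, without the filter, with the replicate block and without DMSO replicate 1. Without DMSO replicate 1 Rhot2 and Mapk8ip2 also passed as rises and Madd, Trak1, Kidins220 and Mapk8ip3 as falls. Of these, Trak1, Kidins220 and Mapk8ip3 also passed with scaling to neuronal genes, and Rhot2 with RLE factors. Rhot2, Mapk8ip2 and Kidins220 passed without the filter too. Kidins220 passed with the replicate block, and Mapk8ip2 without topotecan replicate 1.

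**Figure D4:**
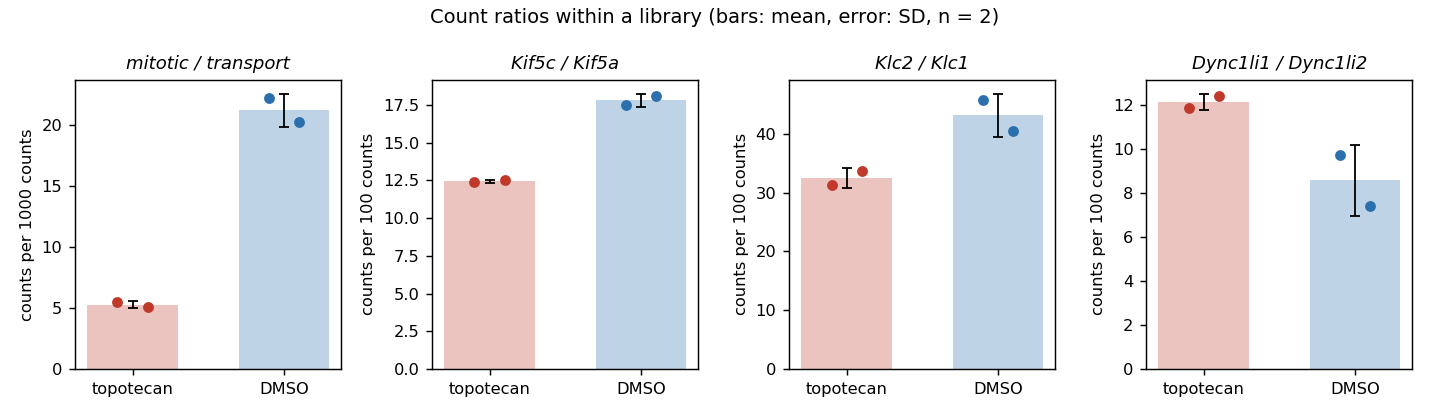
Ratios of counts within each library for topotecan and DMSO (points), with mean (bar) and SD (error bar, n = 2). Mitotic kinesin counts per 1000 axonal transport motor counts were 5.48 and 5.08 in topotecan and 22.2 and 20.3 in DMSO, and the Kif5c, Klc2 and Dync1li1 ratios also separate the treatments.

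Set against each other within a library, the 9 mitotic kinesins gave 5.48 and 5.08 counts for every 1000 counts of the 22 axonal transport motors in topotecan, against 22.2 and 20.3 in DMSO. This ratio needs no scaling between libraries, and the treatments differed by far more than the replicates. Of the 22 transport motors 7 lay lower in both topotecan libraries than in both DMSO libraries, 7 lay higher and 8 overlapped. Over all genes tested 36.9% lay lower and 33.7% higher.

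The motors of the cilium, a microtubule-based antenna that receives Hedgehog signals, were mostly low and varied. Dync2li1, a light intermediate chain of the dynein that returns cargo from the ciliary tip, rose, with 70.2 and 59.5 CPM in topotecan and 50.2 and 45.0 CPM in DMSO (log2 fold change 0.45, SE 0.11, edgeR adjusted p = 0.0058). It did not pass without topotecan replicate 1 (adjusted p = 0.13). The heavy chain gene of the same motor, Dync2h1, had 10.2 and 8.68 CPM in topotecan and 11.2 and 13.1 CPM in DMSO and did not pass (edgeR adjusted p = 0.088), although it did with scaling to neuronal genes (0.042) and without DMSO replicate 1 (0.027).

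Kif7, a kinesin that organises the ciliary tip and restrains Hedgehog signalling, had 12 and 3 counts in topotecan and 32 and 16 in DMSO. Its log2 fold change was -1.79 (SE 0.54, edgeR adjusted p = 0.017), but the call was lost with DESeq2 (0.088) and without topotecan replicate 2 (0.12) or DMSO replicate 1 (0.16). In the RefSeq annotation its span overlaps Ticrr, a replication gene, by 7631 bases. Ticrr was at 0.163 and 0 CPM in topotecan and 0.797 and 0.514 CPM in DMSO. Kif24, Kif9, Kif19, Kif6 and Kif27 did not pass, with log2 fold changes from -0.57 to 0.17. Kif9, a motor of motile cilia, had 1.34 and 2.70 CPM in topotecan and 2.46 and 2.78 CPM in DMSO and passed as a fall without topotecan replicate 2 (edgeR adjusted p = 0.034). Its span overlaps Setd2 on the same strand by 16426 bases.

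Of the other kinesins Kif2a, a microtubule depolymerase that trims axon branches, had 54.3 and 48.3 CPM in topotecan and 49.2 and 55.7 CPM in DMSO. Its 95% interval of the log2 fold change ran from -0.26 to 0.20. Its mitotic relative Kif2c, described above, had an interval from -6.21 to -4.94. Kif26a, a kinesin that lacks motor activity, rose from a low base, with 22 and 15 counts in topotecan and 2 and 5 in DMSO (log2 fold change 2.22, SE 0.60, edgeR adjusted p = 0.010). The call was lost with DESeq2 (adjusted p = 0.081) and without topotecan replicate 1 (0.065) or DMSO replicate 1 (0.11). Kif26b, its paralogue, had 23 and 16 counts in topotecan and 22 and 12 in DMSO. Kif28p, not tested, had 10 and 6 counts in topotecan and 14 and 6 in DMSO. Kif1bp had 24.5 and 21.1 CPM in topotecan and 18.7 and 22.6 CPM in DMSO, and the treatments overlapped.

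Because topotecan was used to lower long genes, each member was set beside its gene span, the distance from start to end in the RefSeq annotation of GRCr8. All 44 members were matched. Of the 10 tested members of 100 kb or more, 3 fell and 0 rose. Of all 1900 genes of that span 49.6% passed, with 43.5% lower and 6.05% higher. The falls were Kif4a (103 kb), Kif5c (150 kb) and Kif13b (158 kb). Dync1i1 spans 313 kb and had a 95% interval of the log2 fold change from -0.07 to 0.25, whereas the median of all 603 genes between 200 and 500 kb was -0.54. Kif26b (406 kb), Kif6 (297 kb), Kif16b (280 kb), Kif13a (183 kb), Dync2h1 (223 kb) and Kif21a (117 kb) did not pass either. The mitotic kinesins span between 8.49 kb for Kif20a and 103 kb for Kif4a, and 8 of the 9 are shorter than 100 kb. Of all genes under 100 kb 38.7% passed, with 20.1% lower and 18.5% higher. Without the mitotic kinesins 2 of 25 members under 100 kb fell and 4 rose. The part of gene span in the changes of the members was not tested.

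**Figure D5:**
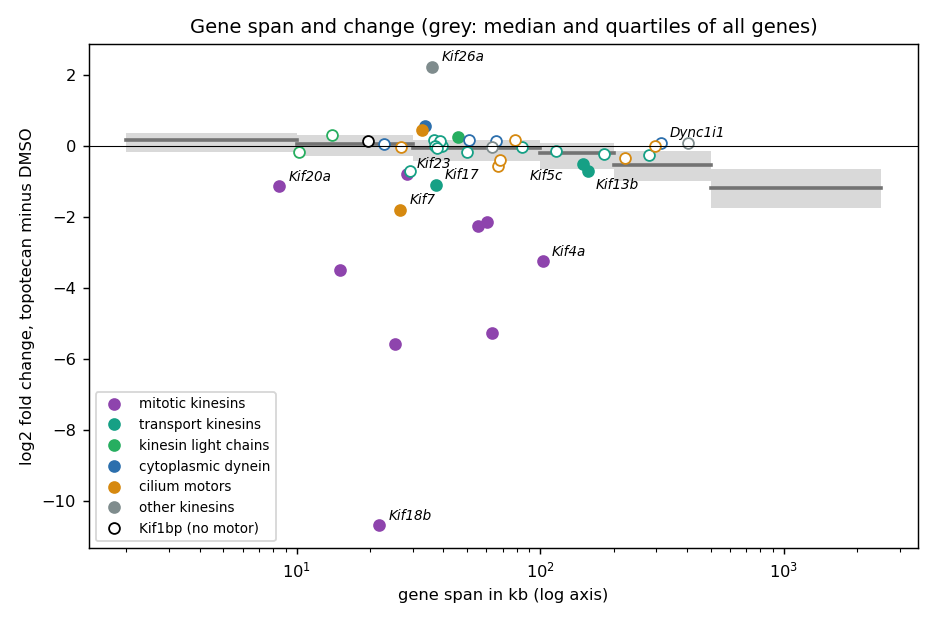
Log2 fold change (topotecan minus DMSO, vertical axis) of the tested motor genes against gene span in kb (log axis), filled where adjusted p was under 0.05. Grey bands give the quartiles and grey lines the median of all genes in 6 span classes, with a median of -1.19 for genes of 500 kb or more. The 9 mitotic kinesins lie below the bands of their span, and Dync1i1 at 313 kb lies above its band. Kif26b and Kif6, both at low counts, also lie above that band. Kif18b is a fitted value with no counts in topotecan.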

How the data were processed

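STAR and edgeR are named in the submitters' processing notes, and the authors deposited 1 table of raw counts per gene. The sources used here do not give the genome build, annotation or counting tool, and the labels' protocols name a small RNA library kit. The 22641 rows were reduced to 21648 identifiers, since 792 stood on several rows with identical counts. Replicates differed by more than sampling noise (chi-square per degree of freedom 9.34 in topotecan and 13.0 in DMSO).

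Counts were tested with edgeR 4.0.16 (R 4.3.3) by the quasi-likelihood F-test with treatment as the only term, TMM scaling, filterByExpr (minimum count 10, minimum total 15) and Benjamini-Hochberg adjustment over 12162 genes, threshold 0.05, with 2 residual degrees of freedom. The test was checked on simulated data in which few genes changed, equally in both directions. That setting does not cover changes as widespread or as uneven as those found here. The SE was the size of the log2 fold change over the root of F. Counting intervals and floors cover counting error only. Alternatives were DESeq2 1.42.0, limma-voom (limma 3.58.1), RLE factors, scaling to 24 neuronal genes (median ratio), no filter, the replicate block and leaving out each library. Genes were matched to RefSeq by Entrez number, symbol or synonym.

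The members and lists were chosen with earlier results of these data known. Any member could be named. Values per library are given for members that passed and for the 3 most abundant of each class, and for further members where a comparison turns on them. Of partner and marker lists the 3 genes with the smallest p could be named, and every gene of a list of at most 6. Aurkb, Birc5, Cdca8, Incenp, Aurka, Mki67, Pcna, Hes1, Hes5, Dcx, Nefm, Elavl3, Gfap, Sox10, Trak2, Arl8a, Dctn1, Dctn5 and genes named for passing under an alternative were chosen after values were seen.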

Additional observations from a re-analysis of the deposited data

How the results depend on the processing

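All 9 mitotic kinesins were lower under each of the 10 alternatives. Their summed CPM, as a ratio of topotecan to DMSO, was 0.259, and 0.238 with scaling to neuronal genes; that of axonal transport motors was 1.04 and 0.957. Leaving out 1 library gave 0.254 to 0.265 and 1.02 to 1.07. With scaling to neuronal genes the median over all genes was -0.13, against -0.01 with TMM, and 3303 genes were lower and 899 higher, against 2854 and 1970. Higher calls over all genes ranged from 1208 to 2470 without 1 library, and motor members called higher from 1 to 6. The axonal transport motors called higher, 2 in all, numbered 1 with scaling to neuronal genes, 1 with the replicate block and 1 to 4 without 1 library; the cause was not tested.

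Members that changed sign did not pass with TMM and all 4 libraries; Kif9 passed as a fall without topotecan replicate 2. Kif5a turned to 0.013 with DESeq2, 0.00034 with limma-voom, 0.013 with RLE factors, 0.013 without a filter and 2.2e-06 with the replicate block, and Kif6 to 0.097 with limma-voom and 0.025 with the replicate block. Scaling to neuronal genes turned Dync1h1 to -0.0039, Dync1i1 to -0.030, Dync1li2 to -0.060 and Kif26b to -0.042. Without 1 library the log2 fold changes that changed sign ranged from -0.24 to 0.22 for Kif19, -0.047 to 0.060 for Kif5a, -0.12 to 0.11 for Kif3b, -0.56 to 0.76 for Kif6, -1.06 to 0.10 for Kif24, -0.11 to 0.064 for Kif2a, -0.30 to 0.041 for Kif21a, -0.24 to 0.47 for Kif27, -0.96 to 0.048 for Kif9, -0.14 to 0.077 for Kif1a and -0.19 to 0.44 for Kif26b; the cause was not tested.

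The correlation over genes of the replicate differences in topotecan and in DMSO was r = -0.071, a single pair of differences. The labels do not say what a shared replicate number marks, so the libraries were not treated as paired. With the replicate block 2746 genes were lower and 1822 higher, and 13 members were lower and 3 higher, Klc1 being the call that was lost. Members called at a low count, such as Kif7 and Kif26a, rest on fewer than 100 counts, which limits what a call can show.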
